A study of Homo sapiens with 4 samples.

Results

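The genes described here form the insulin-like growth factor (IGF) axis: the ligand IGF2, the binding proteins IGFBP2, IGFBP3, IGFBP4 and IGFBP6, the receptors IGF1R, IGF2R and INSR, and the receptor substrates IRS1 and IRS2. They were chosen by name, as 10 listed genes, and 9 of them are among the 19192 genes analysed. IGF2R was not analysed here. Ribosome-protected fragments (RPF, the footprints of translating ribosomes) and total RNA had been sequenced from the human colon cancer cell line SW480, labelled IMP1-/- or wild type. The gene behind IMP1 is IGF2BP1, an RNA-binding protein whose family is named after its binding to IGF2 mRNA. The 4 groups, IMP1-/- RPF, IMP1-/- RNA, wild-type RPF and wild-type RNA, had 1 library each. Per the labels each was made from 3 pooled culture plates, and the labels name no clone, guide or treatment. For wild-type RNA the labels conflict on the line (SW840 in one field, SW480 in the source name), which was not resolved.

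In this axis IGF1 and IGF2 bind the tyrosine kinase receptor IGF1R, and IGF2 also binds a splice form of the insulin receptor INSR. Activated receptors phosphorylate the docking proteins IRS1 and IRS2, which recruit PI3K and so activate AKT. The secreted IGF-binding proteins hold the ligands away from the receptors or deliver them, and IGFBP6 prefers IGF2. In colorectal tumours IGF2 is known as an imprinted gene that can be overexpressed.

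Library totals were 4932388 counts for IMP1-/- RNA, 5551479 for wild-type RNA, 3778316 for IMP1-/- RPF and 3782874 for wild-type RPF. The targeted gene IGF2BP1 had 571 reads in the IMP1-/- RNA library and 598 in wild-type RNA, a log2 change of 0.08 (95% counting interval −0.08 to 0.25). Its footprints numbered 149 in the IMP1-/- library and 285 in wild type, a log2 change of −0.93 (−1.23 to −0.65). IGF2BP1 RNA was thus not reduced, and gene totals carry no exon information, so the IMP1-/- libraries are called knockout-labelled. Its relatives IGF2BP2 and IGF2BP3 had RNA changes of −0.09 and −0.41 and RPF changes of 0.01 and 0.10. The epithelial adhesion gene EPCAM had 1143 reads in knockout-labelled RNA and 1081 in wild-type RNA, and the list of 10 epithelial markers summed to 5831 CPM (counts scaled to a common library size) in knockout-labelled RNA and 8517 CPM in wild-type RNA. Of the 9 epithelial markers measured in RNA, 2 were called higher, E-cadherin (CDH1, change 1.93) and CLDN7 (0.66), and 5 lower, KRT8, KRT18, ELF3, CDX2 and villin (VIL1, with 2 reads in knockout-labelled RNA and 160 in wild-type RNA). The 8 fibroblast markers analysed summed to 6.24 CPM in knockout-labelled RNA and 2.18 CPM in wild-type RNA, and DCN was at 0 reads in every library. Leukocyte markers summed to 44.5 CPM in knockout-labelled RNA, all of it CD68, and 8.52 CPM in wild-type RNA. CD68 was called higher in both kinds. It had 221 RNA reads in the knockout-labelled library and 26 in wild type, and 198 and 4 footprints. CD14, LYZ and ITGAM had 0 reads in knockout-labelled RNA and 14, 5 and 2 in wild-type RNA, and PTPRC and CD3E were at 0 in every library. Endothelial markers summed to 179 CPM in knockout-labelled RNA and 368 CPM in wild-type RNA, of which KDR made up 843 of 888 reads and 1969 of 2027 reads. In footprints the endothelial sum had the opposite order, at 13.5 CPM in the knockout-labelled library and 2.65 CPM in wild type. CDH5 had 30 footprints in the knockout-labelled library and 0 in wild type, VWF 13 and 0, and PECAM1 4 and 0. KDR had 4 and 6, and TEK 0 and 4. Liver markers summed to 91.8 CPM in knockout-labelled RNA and 26.8 CPM in wild-type RNA. Their footprints summed to 297 CPM in the knockout-labelled library and 95.2 CPM in wild type. All of it was SERPINA1, called higher in both kinds, and ALB, APOA1 and TTR were at 0 in every library. The part of these markers in the results was not tested.

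For IGF2 the footprint count was above, and the RNA count below, that of wild type in the knockout-labelled libraries. The first 300 bases of its coding sequence are shown because the coding sequence makes up 543 of the 5585 bases of the counted transcript ENST00000416167, with 1167 bases before the start codon and 3875 after the stop codon. Footprints of translating ribosomes come from this stretch, and RNA fragments can come from the whole transcript. It is given 5′ to 3′ from GENCODE release 29 (GRCh38, chr11:2132987-2135523, minus strand, introns removed), with the start codon in capitals; the coordinates span the whole coding sequence.
IGF2: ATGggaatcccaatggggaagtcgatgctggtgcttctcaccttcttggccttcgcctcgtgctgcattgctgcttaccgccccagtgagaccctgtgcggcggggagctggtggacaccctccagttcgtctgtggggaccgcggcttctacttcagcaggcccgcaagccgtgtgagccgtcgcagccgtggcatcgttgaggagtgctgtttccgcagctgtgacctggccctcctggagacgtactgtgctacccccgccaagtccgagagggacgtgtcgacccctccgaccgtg

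The promoters of the 4 genes whose RNA was called changed are shown from 250 bases before to 50 bases after the start site (RefSeq, GRCh38.p14), 5′ to 3′ on the gene's strand. The first 3 belong to genes that were lower and the last to one that was higher. Capitals mark every match, on either strand, to a motif searched. GGGCGG is the core of a GC box. TATAAA is the usual form of a TATA box. A variant of it is TATATA. The E-box letters are CACGTG, and like TATATA they read the same on both strands. These matches are letters in a window and not measured sites. The counted IGFBP6 transcript starts at position 53097445, upstream of the RefSeq start used for its window. Most of the IGFBP6 window, with its marked motif, thus lies within the span of that transcript.
IGFBP3 (chr7:45921223-45921522, minus strand): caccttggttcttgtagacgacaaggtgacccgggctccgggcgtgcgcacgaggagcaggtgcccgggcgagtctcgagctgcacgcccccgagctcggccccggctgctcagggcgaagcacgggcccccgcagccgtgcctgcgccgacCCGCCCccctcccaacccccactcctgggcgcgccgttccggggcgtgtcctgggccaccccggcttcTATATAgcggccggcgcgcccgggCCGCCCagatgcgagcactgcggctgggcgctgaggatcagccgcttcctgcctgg
IGFBP4 (chr17:40443200-40443499, plus strand): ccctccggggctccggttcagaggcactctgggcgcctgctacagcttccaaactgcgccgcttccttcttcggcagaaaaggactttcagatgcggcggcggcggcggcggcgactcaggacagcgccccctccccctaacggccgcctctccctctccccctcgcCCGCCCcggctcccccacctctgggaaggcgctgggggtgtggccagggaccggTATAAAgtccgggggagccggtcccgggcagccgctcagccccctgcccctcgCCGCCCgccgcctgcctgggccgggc
IRS1 (chr2:226799771-226800070, minus strand): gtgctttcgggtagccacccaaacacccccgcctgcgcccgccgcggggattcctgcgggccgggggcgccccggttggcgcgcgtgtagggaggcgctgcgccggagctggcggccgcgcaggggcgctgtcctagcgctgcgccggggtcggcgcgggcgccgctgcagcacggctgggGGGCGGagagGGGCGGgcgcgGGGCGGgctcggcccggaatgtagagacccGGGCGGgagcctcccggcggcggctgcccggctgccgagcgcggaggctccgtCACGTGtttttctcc
IGFBP6 (chr12:53097417-53097716, plus strand): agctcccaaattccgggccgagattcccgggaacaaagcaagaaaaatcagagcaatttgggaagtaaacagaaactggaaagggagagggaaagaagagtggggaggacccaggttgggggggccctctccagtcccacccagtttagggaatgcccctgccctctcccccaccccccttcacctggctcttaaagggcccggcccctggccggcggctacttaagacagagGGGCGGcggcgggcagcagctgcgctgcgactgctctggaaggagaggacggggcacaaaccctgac

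The promoter of IGFBP3 held GGGCGG or its complement 2 times and TATATA 1 time, that of IGFBP4 held GGGCGG 2 times and TATAAA 1 time, that of IRS1 held GGGCGG 4 times and CACGTG 1 time, and that of IGFBP6 held GGGCGG 1 time. TATATA was found in 3.99% and TATAAA in 11.5% of 35116 promoter windows of this length. GGGCGG was found in 45.0% of them and CACGTG in 7.26%. All 8 analysed genes of the axis that had a promoter in the table held GGGCGG in at least 1 window, so this motif did not separate the genes that were lower from the gene that was higher. GC content of the 4 windows was 74.7% for IGFBP3, 74.0% for IGFBP4, 79.3% for IRS1 and 61.7% for IGFBP6.

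A change is given as log2(knockout-labelled / wild type) of counts scaled with TMM, the trimmed mean of M values. The change in translational efficiency (TE) is RPF change minus RNA change. Intervals are 95% and cover counting error only. To count as measured, a gene needed 50 reads or more summed over the genotypes of RNA or RPF. A call required a change of 1.5-fold or more together with an interval that left out 0. With 1 library per group there is no replicate check, and each call compares 2 libraries and not the conditions. Fewer cells with a transcript and less of it per cell cannot be told apart, nor can genotype and culture.

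IGF2 encodes the fetal growth factor of the axis. It had 60 footprints in the knockout-labelled library and 37 in wild type, against 411 RNA reads in the knockout-labelled library and 637 in wild type. The order of the genotypes was thus opposite in footprints and RNA. The RPF change was 0.69 (0.08 to 1.33), called higher at 1.61-fold. The RNA change was −0.48 (−0.66 to −0.30), whose interval excluded no change but which fell short of 1.5-fold. The TE change of 1.17 (0.56 to 1.78), or 2.25-fold higher, was the only one called among the 8 genes of the axis measured in both kinds. IGF2 transcripts can start at several promoters with different leaders, and counts per gene do not separate them. The overlapping readthrough gene INS-IGF2 had 0 reads in each library. Of the measured genes nearest to IGF2 on either side, MRPL23 at 173 kb had an RNA change of −1.24, called lower, and TH at 24.5 kb one of 0.73, called higher.

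On the CPM scale IGF2 had few footprints for its RNA in both genotypes. The log2 ratio of RPF CPM to RNA CPM was −2.37 (−2.76 to −1.98) in the knockout-labelled libraries and −3.54 (−4.02 to −3.07) in wild type. Among 9598 genes measured in both kinds these stood at percentiles 2.78 and 0.511. The counted region is not given in the sources used here, so the ratio was also taken per length, as RPF per kilobase of coding sequence over RNA per kilobase of transcript. On that scale IGF2 was at 0.99 in the knockout-labelled libraries and −0.18 in wild type, at percentiles 43.2 and 11.1. The medians of all genes measured in both kinds were 1.18 and 1.14. Per length IGF2 was thus low in wild type but near the middle of all genes in the knockout-labelled libraries. The TE change between genotypes is the same on both scales because the lengths cancel.

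IGFBP3, the main carrier of IGFs in serum and a growth-inhibitory protein in many epithelial cells, nearly disappeared from both kinds of library. It had 5 RNA reads in the knockout-labelled library and 393 in wild type. Its footprints numbered 6 in the knockout-labelled library and 405 in wild type. RNA was at 1.55% of the wild-type level (change −6.01, −7.78 to −4.91) and RPF at 1.60% (−5.96, −7.53 to −4.94). The TE change was 0.05 with an interval of −1.60 to 1.70, so the remaining 5 and 6 reads leave TE poorly resolved. Per length, IGFBP3 RNA fell to percentile 0.451 of all measured genes in the knockout-labelled library, against 79.9 in wild type.

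The genes whose RNA and RPF changes lay nearest to those of IGFBP3, by Euclidean distance over 9598 genes, were the Wnt antagonist gene DKK4 (distance 0.70), the SOCS-box gene ASB4 (1.12) and the T-cell kinase gene ZAP70 (1.83). DKK4 had 19 RNA reads in the knockout-labelled library and 1325 in wild type. ASB4 had 17 and ZAP70 3 RNA reads in the knockout-labelled library, against 575 and 123 in wild type. The measured genes that flank IGFBP3 on chromosome 7 did not share its loss; they and the flanks named later were added after the values were seen. ADCY1, 189 kb away, had 1115 RNA reads in the knockout-labelled library and 330 in wild type, with 1 and 0 footprints. TNS3, 1354 kb away on the other side, had RNA and RPF changes of −0.40 and −0.31, neither called.

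IGFBP4, which binds IGFs and is cut by the protease PAPPA, had an RNA level per length that counting error did not separate from that of IGFBP6 in the knockout-labelled library, and that led the axis in wild type. It was called lower in RNA, with 787 reads in the knockout-labelled library and 1329 in wild type (change −0.60, −0.73 to −0.48). Its footprints were also lower, at 376 in the knockout-labelled library and 609 in wild type (−0.70, −0.89 to −0.51). The TE change of −0.09 (−0.32 to 0.13) was not called. At 1.52-fold the RNA call lay at the edge of the threshold, and with scaling by total counts the change was −0.58 and no longer called. The nearest measured genes on either side, TOP2A at 25.5 kb and TNS4 at 18.1 kb, were also lower in RNA, with changes of −1.53 and −0.93.

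IGFBP6, the binding protein with a preference for IGF2, was the only one of the axis called higher in both kinds of library. RNA reads numbered 412 in the knockout-labelled library and 257 in wild type (change 0.83, 0.60 to 1.06). Footprints numbered 784 in the knockout-labelled library and 502 in wild type (0.64, 0.48 to 0.81). These are 1.78-fold in RNA and 1.56-fold in RPF, and the TE change was −0.19 (−0.47 to 0.09). On chromosome 12 the nearest gene measured in RNA on one side of IGFBP6 was SPRYD3, 18.0 kb away. SPRYD3 was higher in RNA by 1.51 and in RPF by 1.57. The nearest measured gene on the other side, ZNF740 at 78.4 kb, had an RNA change of −0.30, not called, and an RPF change of 0.70, called higher.

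IGFBP2, which binds IGF1 and IGF2 and is often raised in tumours, had 362 RNA reads in the knockout-labelled library and 558 in wild type. It had 589 footprints in the knockout-labelled library and 801 in wild type. Both changes were below the threshold at −0.47 (−0.67 to −0.28) in RNA and −0.44 (−0.60 to −0.29) in RPF, with intervals that excluded no change. The TE change was 0.03 (−0.22 to 0.27).

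**Figure D1:**
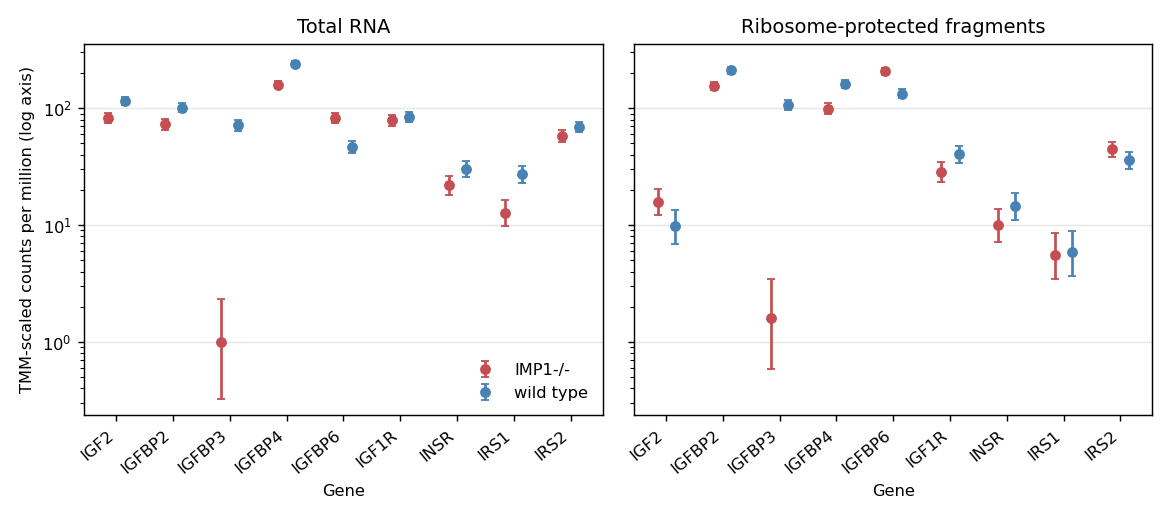
TMM-scaled CPM on a log axis for 9 IGF axis genes in total RNA (left) and ribosome-protected fragments (right), with the knockout-labelled (IMP1-/-) library left of wild type; 1 library per point, and bars are exact 95% Poisson intervals of the count. IGFBP3 stands at 1.01 CPM in knockout-labelled RNA against 71.3 CPM in wild-type RNA, and the order of the genotypes for IGF2 is opposite in the panels.

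The make-up of the binding proteins differed between the libraries. It was taken as shares of reads, with IGFBP7 added, which is not in the plot of levels. Among the reads of IGFBP2, IGFBP3, IGFBP4, IGFBP6 and IGFBP7, IGFBP6 took 44.0% of footprints in the knockout-labelled library (exact 95% binomial interval 41.7 to 46.3) and 19.9% in wild type (18.3 to 21.5). IGFBP3 took 0.337% of these footprints in the knockout-labelled library and 16.0% in wild type. In RNA IGFBP6 took 26.2% (24.1 to 28.5) of the reads in the knockout-labelled library and 9.64% (8.54 to 10.8) in wild type. IGFBP4 kept close to the same share of RNA reads, at 50.1% (47.6 to 52.6) in the knockout-labelled library and 49.8% (47.9 to 51.7) in wild type. These shares take no account of transcript length. Per kilobase of transcript the IGFBP4 share of RNA was 37.0% in the knockout-labelled library and 40.9% in wild type. Its share of footprint reads was 21.1% (19.2 to 23.1) in the knockout-labelled library and 24.1% (22.5 to 25.8) in wild type. Shares are of a summed total, so fewer IGFBP3 and IGFBP7 reads alone raise the shares of the rest. IGFBP6 over IGFBP4 per kilobase of transcript was 0.985 (0.872 to 1.11) in knockout-labelled RNA and 0.364 (0.317 to 0.416) in wild-type RNA.

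The receptors were not called in either kind. IGF1R, the main signalling receptor for both IGFs, had 391 RNA reads in the knockout-labelled library and 463 in wild type, a change of −0.09 (−0.29 to 0.10). Its footprints numbered 108 in the knockout-labelled library and 152 in wild type, a change of −0.49 (−0.86 to −0.13). The TE change of IGF1R was −0.40, with an interval of −0.80 to 0.01 that just included no change. INSR, the insulin receptor, had 109 RNA reads in the knockout-labelled library and 166 in wild type, a change of −0.45 (−0.82 to −0.10). INSR footprints numbered 38 in the knockout-labelled library and 55 in wild type, a change of −0.53 (−1.17 to 0.09) that counting error does not separate from 0.

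The intervals for the balance of the receptor genes overlapped between the genotypes, which does not show that the balance was equal. Per kilobase of coding sequence, IGF1R footprints were 2.87 times those of INSR in the knockout-labelled library (1.97 to 4.28) and 2.79 times in wild type (2.04 to 3.88). Per kilobase of transcript, IGF1R RNA was 1.43 times INSR RNA in the knockout-labelled library (1.16 to 1.79) and 1.12 times in wild type (0.932 to 1.34), with intervals that overlap.

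IRS1, a docking protein of both receptors, was lower in RNA. It had 63 RNA reads in the knockout-labelled library and 150 in wild type, a change of −1.09 (−1.55 to −0.67), or 2.13-fold lower. Its footprints numbered 21 in the knockout-labelled library and 22 in wild type, under the minimum of 50 over both, so RPF and TE changes were not measured. With a minimum of 20 reads the RPF change was −0.07, with an interval that included 0, and the TE change 1.03 (0.08 to 1.98), which then counts as higher. RHBDD1, 36.2 kb from IRS1, had an RNA change of 0.65 and was called higher, and CUL3, 2146 kb away on the other side, had 0.38, not called.

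IRS2, the second docking protein, had 288 RNA reads in the knockout-labelled library and 379 in wild type, a change of −0.24 (−0.47 to −0.02). Its footprints numbered 168 in the knockout-labelled library and 136 in wild type, a change of 0.30 (−0.03 to 0.64). Like IGF2 it had lower RNA and higher footprint values in the knockout-labelled libraries, without a call in either kind. The TE change of 0.55 (0.15 to 0.94) excluded no change but stayed under 1.5-fold. IRS2 over IRS1 per kilobase of transcript was 5.45 (4.14 to 7.28) in knockout-labelled RNA and 3.01 (2.49 to 3.67) in wild-type RNA. In footprints per kilobase of coding sequence the ratio was 7.43 (4.70 to 12.3) in the knockout-labelled library and 5.74 (3.64 to 9.46) in wild type, with wide overlap.

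**Figure D2:**
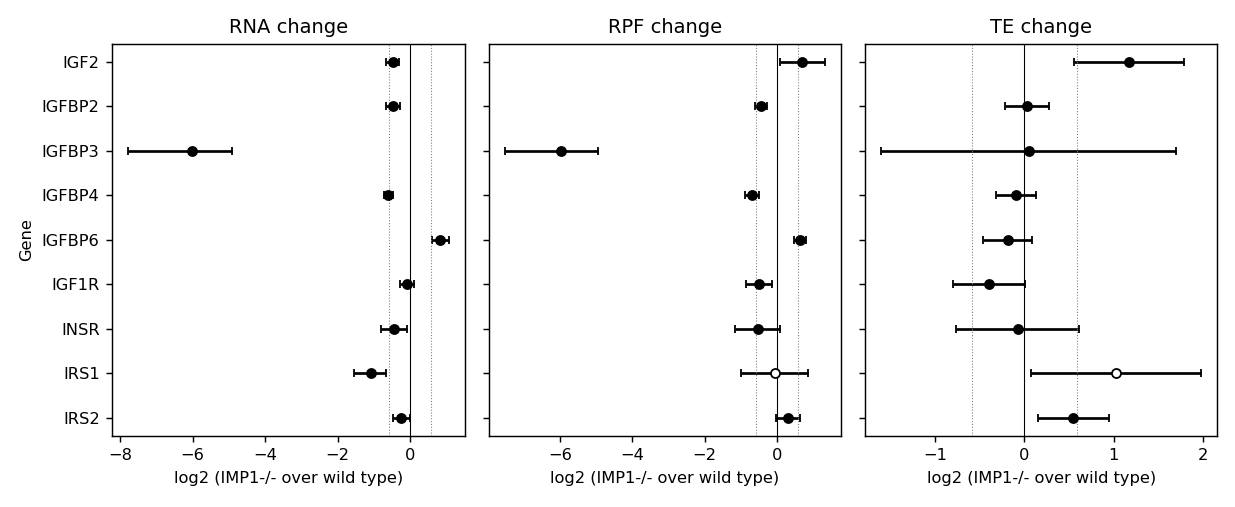
Log2 changes of RNA, RPF and TE (knockout-labelled IMP1-/- over wild type) for each gene, with 95% counting intervals; dotted lines mark 1.5-fold and open circles mark values under the minimum of 50 reads. IGFBP3 stands alone at −6.01 in RNA and −5.96 in RPF, and IGF2 at 1.17 is the only TE change called.

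Of the 9 genes measured in RNA, 1 was called higher, 3 lower and 5 neither, with a median change of −0.47. Over all 10875 genes measured in RNA 34.0% were called (16.2% higher, 17.8% lower) and the median change was −0.01, so the count of calls is near the background. In RPF 2 of 8 were higher and 2 lower (median −0.47), against 39.1% called (19.0% higher, 20.1% lower) and a median of −0.00065 over 9794 genes. In TE 1 of 8 was higher and 0 lower (median −0.02), against 29.6% called (15.7% higher, 13.9% lower) and a median of 0.03 over 9598 genes. These shares of the axis are therefore not a result about it, and single genes carry the description. At a 2-fold threshold 14.7% of all genes were called in RNA (6.39% higher, 8.35% lower). The share was 18.9% in RPF (9.0% higher, 9.87% lower) and 12.7% in TE (6.46% higher, 6.28% lower). At that threshold the calls of the axis that remained were IGFBP3 in RNA and RPF, IRS1 in RNA and IGF2 in TE.

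**Figure D3:**
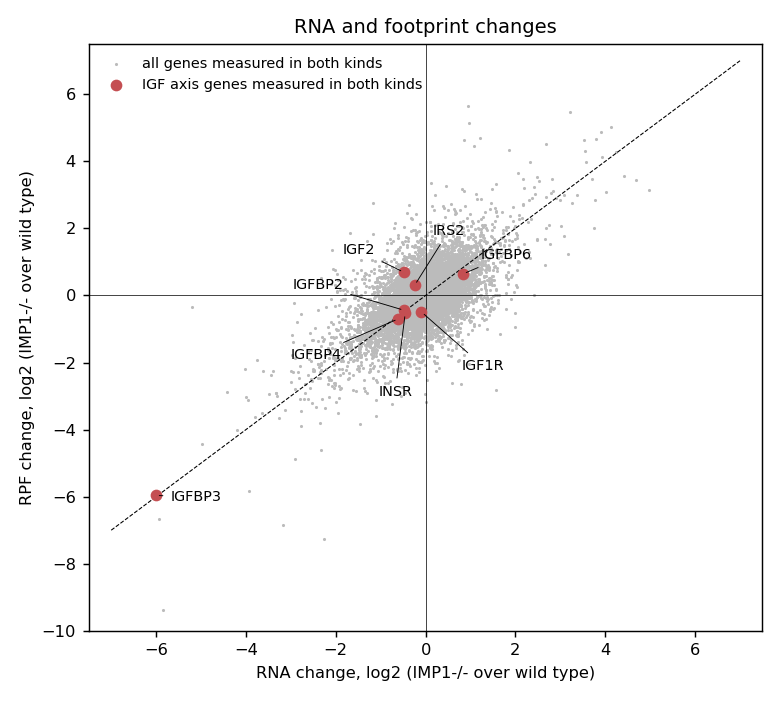
RPF change against RNA change (log2, knockout-labelled IMP1-/- over wild type) for 9598 genes measured in both kinds, in grey, and 8 IGF axis genes in red; the dashed line marks equal changes. IGFBP3 lies on the dashed line far to the lower left, and IGF2 lies above it with a negative RNA change and a positive RPF change.

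RNA levels per kilobase of transcript gave an order that was led by binding proteins. In knockout-labelled RNA, IGFBP4 had 72.0 and IGFBP6 71.0 CPM per kilobase of transcript, with overlapping intervals, followed by IGFBP2 at 50.7 and IGF2 at 14.8. In wild-type RNA the order was IGFBP4 at 110, IGFBP2 at 70.3, IGFBP6 at 39.9, IGFBP3 at 31.5 and IGF2 at 20.7, each apart from its neighbour. IRS2, IGF1R and INSR lay lower, at 7.13, 6.67 and 4.65 in knockout-labelled RNA and at 8.45, 7.11 and 6.38 in wild-type RNA. In both libraries the intervals of IRS2 and IGF1R overlapped. IRS1 was at 1.31 in knockout-labelled RNA and 2.80 in wild-type RNA, and only IGFBP3, at 0.445 in the knockout-labelled library with an interval overlapping that of IRS1, was lower.

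Footprint levels per kilobase of coding sequence put IGFBP6 first in the knockout-labelled library, at 287, ahead of IGFBP2 at 159 and IGFBP4 at 128, each apart from its neighbour. In wild type IGFBP2 was at 217, IGFBP4 at 207 and IGFBP6 at 184, and neighbours overlapped, with IGFBP3 next at 122. IGF2 followed at 29.2 in the knockout-labelled library and 18.0 in wild type. The receptors and substrates lay between 1.49 and 11.1 in the knockout-labelled library and between 1.56 and 9.80 in wild type.

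On the CPM scale log2 TE was positive for IGFBP6, IGFBP2 and IGFBP3 in both genotypes. It was negative for IGF2, IGFBP4, IRS2 and the receptors. IGFBP3 was at 0.63 in the knockout-labelled libraries, from 5 RNA reads and 6 footprints, and at 0.59 in wild type. IGFBP4 was at −0.67 and IRS2 at −0.38 in the knockout-labelled libraries, and at −0.58 and −0.93 in wild type. The order depends on the scale: per length in the knockout-labelled libraries, IGF2 (0.99) and IGFBP4 (0.83) were above IRS2 (0.64). IGFBP6 had a log2 TE of 1.32 in the knockout-labelled libraries and 1.51 in wild type, at percentiles 89.9 and 95.8 of all genes. IGFBP2 was at 1.09 in the knockout-labelled libraries and 1.07 in wild type. INSR, a receptor with a long coding sequence, was at −1.11 in the knockout-labelled libraries and −1.04 in wild type, at percentiles 15.1 and 15.2. IGF1R was at −1.46 in the knockout-labelled libraries and −1.06 in wild type. Across 9589 genes TE had a Spearman rho with the log2 coding share of the transcript of 0.28 in the knockout-labelled libraries and 0.29 in wild type. After the length correction the rho was −0.38 in the knockout-labelled libraries and −0.42 in wild type. Neither scale is therefore free of transcript structure, and these correlations are across genes of the same libraries.

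**Figure D4:**
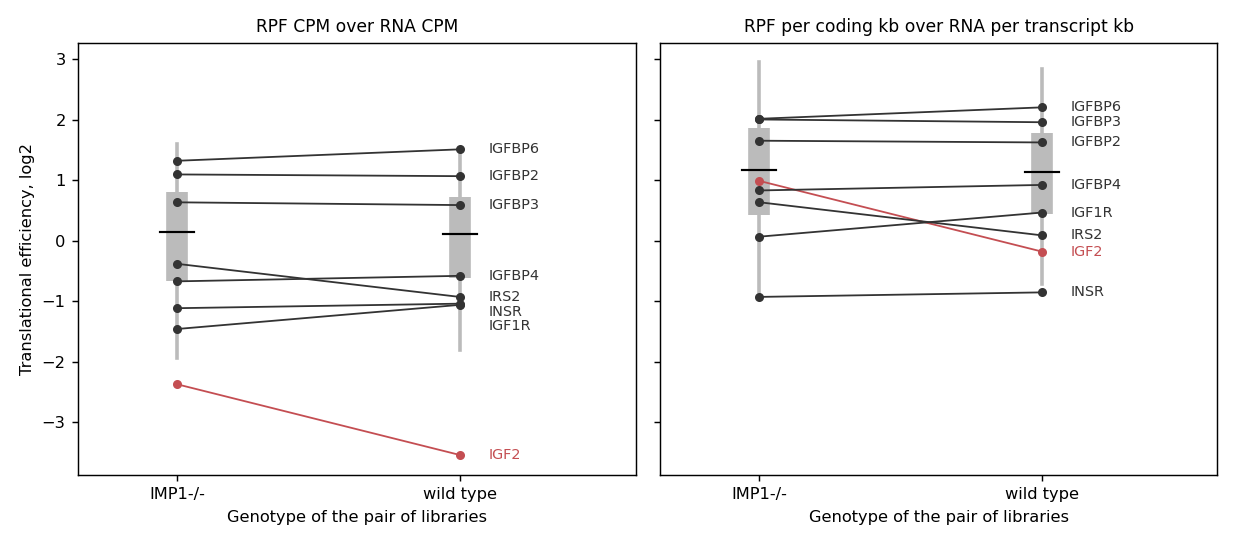
Log2 TE of 8 IGF axis genes in the knockout-labelled (IMP1-/-) and wild-type pairs of libraries, from CPM (left) and per length (right); grey bars span the quartiles and grey lines the 5th to 95th percentiles of all genes, with the median as a black line. IGF2, in red, is the lowest on the left in both genotypes, at −2.37 in the knockout-labelled and −3.54 in the wild-type libraries, and per length reaches 0.99 in the knockout-labelled and −0.18 in the wild-type libraries.

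Other genes of the pathway were taken from 9 lists by role that held 68 genes besides those above. In RNA 7 of 51 measured were higher and 5 lower, with a median change of 0.03. In RPF 6 of 47 were higher and 9 lower (median 0.01), and in TE 5 of 47 were higher and 6 lower (median −0.07). Each share was under the 34.0%, 39.1% and 29.6% called over all genes. Of the ligands, IGF1 had 14 RNA reads in the knockout-labelled library and 12 in wild type, and insulin (INS) had 0 in each library.

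Among the binding proteins IGFBP7, a secreted relative with low affinity for IGFs, was lower together with IGFBP3. It had 5 RNA reads in the knockout-labelled library and 130 in wild type (change −4.42, −6.20 to −3.29). Its footprints numbered 28 in the knockout-labelled library and 208 in wild type (−2.87, −3.52 to −2.32). The RNA fell further than the footprints, and the TE change was 1.55 (0.19 to 2.90), which rests on those 5 reads. IGFBP5 had 9 RNA reads in the knockout-labelled library and 0 in wild type, under the minimum. IGFBP1 had 0 RNA reads in both libraries, as did IGFALS, the acid-labile subunit of the serum complex.

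Proteases and inhibitors of the binding proteins were mostly too low to measure. PAPPA, the protease that cuts IGFBP4, had 24 RNA reads in the knockout-labelled library and 6 in wild type. STC2, stanniocalcin-2, which inhibits PAPPA, was well measured, with 1338 footprints in the knockout-labelled library and 826 in wild type, called higher at 0.69 (0.57 to 0.82). Its RNA change of 0.44 was not called. FURIN, the protease that cleaves the receptor precursors, had an RNA change of −0.10 and an RPF change of −1.01, a TE change of −0.92 (−1.32 to −0.51). The small mannose 6-phosphate receptor gene M6PR was called higher in RPF at 0.73.

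Downstream of the receptors the exchange factor gene SOS2, which activates RAS, was higher in both kinds, at 1.18 in RNA and 1.17 in RPF. The adaptor gene SH2B2 had an RNA change of −0.01 and 12 footprints in the knockout-labelled library against 52 in wild type, with a TE change of −2.07 (−3.03 to −1.10). SHC1, an adaptor to the RAS pathway, had a TE change of 0.69 that was called higher. Among regulators, the AKT inhibitor gene TRIB3 and the receptor phosphatase gene PTPRF were higher in both kinds, TRIB3 by 0.90 in RNA and 0.67 in RPF and PTPRF by 0.79 in RNA and 1.06 in RPF. ENPP1, an inhibitor of the insulin receptor, had 46 RNA reads in the knockout-labelled library and 175 in wild type, a change of −1.76. PTPN2, a phosphatase of the receptors, was lower in RNA at −0.69 with 142 footprints in each library, and its TE change of 0.69 was called. The ubiquitin ligase gene NEDD4 was called in TE alone, at 0.65.

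PI3K and AKT genes had 1 of 13 higher and 1 lower in RNA, and 3 lower and 0 higher in RPF. Over all genes 16.2% were higher and 17.8% lower in RNA, and 19.0% higher and 20.1% lower in RPF, so the 3 lower in RPF are near the background. The regulatory subunit gene PIK3R2 was higher in RNA at 0.76 and lower in RPF at −0.63, for a TE change of −1.39 (−1.92 to −0.85). AKT2 was lower in RNA at −0.74, while AKT1 and PDPK1, the kinase that activates AKT, were lower in RPF at −0.72 and −0.73. PIK3CD, a catalytic subunit, had a TE change of −1.11.

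Among 12 AKT substrates and outputs, the transcription factor gene FOXO4 was higher in both kinds, at 0.78 in RNA and 0.71 in RPF. GSK3B, a kinase that AKT inhibits, and TSC1, a brake on RHEB, were higher in RNA at 0.79 and 0.62, and RHEB, the activator of mTOR complex 1, was lower at −0.61. GSK3A, TBC1D4 and TBC1D1 were lower in RPF at −0.97, −0.98 and −0.61. TSC2 had an RNA change of 0.58 and a TE change of −1.09, and GSK3A a TE change of −0.79. BAD, a promoter of cell death, was called higher in TE at 0.84.

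**Figure D5:**
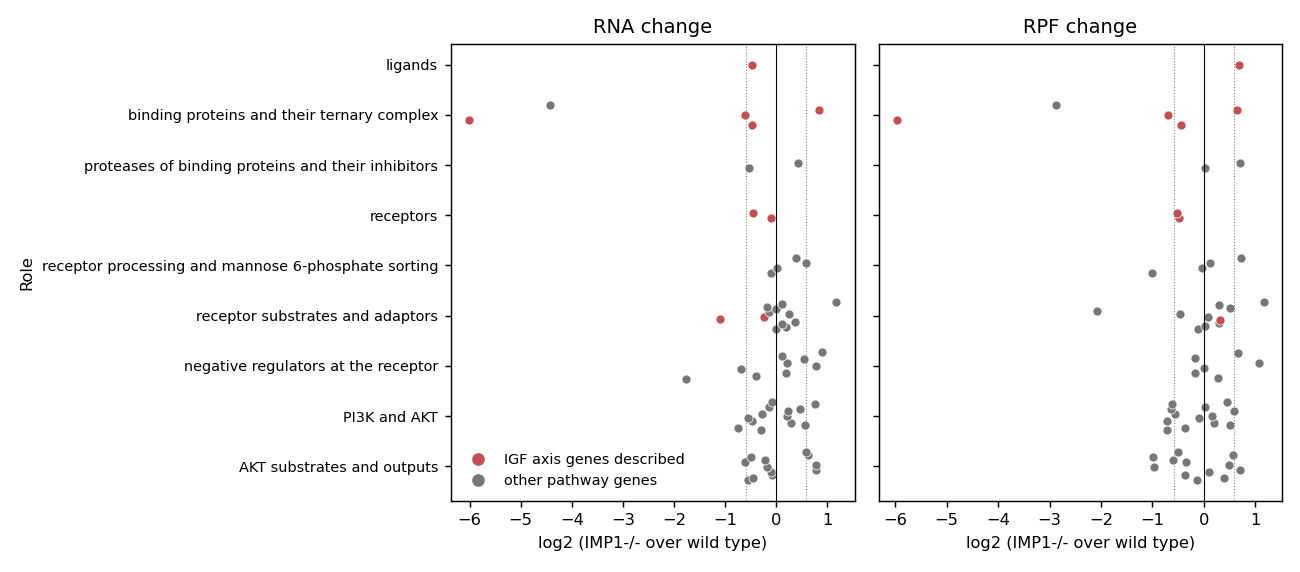
Log2 changes (knockout-labelled IMP1-/- over wild type) of measured IGF and insulin pathway genes by role, in RNA (left) and RPF (right), with the axis genes in red and others in grey; dotted lines mark 1.5-fold. The binding proteins spread furthest, with IGFBP3 and IGFBP7 at −6.01 and −4.42 in RNA, and receptors stay within the dotted lines.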

How the data were processed

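The deposited tables hold raw counts, as whole numbers, for 1 transcript per gene symbol. Size selection kept 18 to 34 nt for ribosome footprints and 18 to 50 nt for fragmented RNA, and linkers carried molecular identifiers, per the labels' protocols. Tools named in the submitters' processing notes are HISAT2 2.1.0, Bowtie 1.1.2 and cutadapt 1.10, with the build GRCh38. Which region was counted, and how strand, multi-mapping and identifiers were treated, is not given in the sources used here. Therefore reads of overlapping genes may be shared. Libraries of a kind were scaled by TMM in edgeR 4.0.16 (R 4.3.3). Ratios used a prior count of 0.5 in Python 3.11.15 with NumPy 2.4.6, SciPy 1.17.1 and pandas 2.3.3. RNA and RPF intervals are exact conditional (Clopper-Pearson), and TE intervals use the sum of reciprocal counts. Both cover counting error only, because they come from the counts of 1 library per group. If PCR copies of a molecule remained among the reads, these intervals are too narrow. A count of 0 allows up to 3 counts, which is 0.604 TMM-scaled CPM in knockout-labelled RNA, 0.544 in wild-type RNA, 0.793 in knockout-labelled RPF and 0.794 in wild-type RPF. The calculation was tested on simulated counts with counting error only, in which 200 genes were changed 4-fold in RPF and none in RNA. All 200 were called in RPF and in TE. Of the unchanged genes 135 of 9452 were called in RPF and 192 of 9206 in TE. Variation between libraries was not simulated, so the simulation cannot show how far it affects the calls. Lengths, with the stop codon in the coding length, came from GENCODE release 29 (Ensembl 94), which held 19176 of the transcripts. All 10 listed genes are named, as are the IGF2BP genes, pathway genes called in RNA, RPF or TE, uncalled examples from the lists, and the 3 genes nearest to the axis gene with the largest RNA change. Flanking genes, per-length TE and levels per coding length were added after the data were seen. The members and lists were chosen with earlier results of these data known. Alternatives were other scalings, minimums, a prior count and a fold threshold.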

Additional observations from a re-analysis of the deposited data

How the results depend on the processing

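The 9 called changes of single IGF axis genes were each recomputed under 9 alternative settings. Of these 81 cases 72 kept the call, 7 lost it, 2 gave no value and 0 reversed. Among changes not called or not measured, a call was gained 2 times. With scaling by total counts, and by total counts without the MTRNR2L genes and PLCG2, IGFBP4 RNA lost its call at −0.58 and −0.56. Scaling by total counts, median of ratios or upper quartile moved RNA and RPF changes by about 0.02 (log2) at most. With a minimum of 20 reads, or none, 2 axis genes were called higher in TE. With a minimum of 200 reads 1 was higher in RPF and 0 in TE, since IGF2 left the comparison. Of the other pathway genes 5 of 27 were then lower in RPF, against 9 of 47 at the minimum of 50. In TE 3 of 26 were higher and 3 lower, against 5 and 6 of 47. The share called over all genes was computed at the minimum of 50 only, so counts at other minimums have no background beside them. At a 2-fold threshold 0 axis genes were higher in RNA, and 0 were higher and 1 lower in RPF. Of the other pathway genes 1 was then higher and 2 lower in RNA, and 2 higher and 3 lower in RPF. In TE 1 of them was higher, while SH2B2, PIK3R2, PIK3CD and TSC2 stayed lower, at −2.07, −1.39, −1.11 and −1.09. These shifts follow from the stricter or looser rule itself. A prior count of 2 changed no call. Taking RNA levels per kilobase of coding sequence, an alternative added after seeing the data, puts IGF2 at 152 in knockout-labelled RNA and 213 in wild-type RNA. On that scale IGFBP4 was above IGF2, at 204 in knockout-labelled RNA and 310 in wild-type RNA. IGFBP6 and IGFBP2 were below IGF2, at 115 and 74.5 in knockout-labelled RNA and at 64.5 and 103 in wild-type RNA. The order of RNA levels thus depends on the length used. Depth limits IGFBP3 TE and IRS1 footprints. No paired analysis was possible because each group has 1 library, and for the same reason no replicate could be left out.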
